A study of Mus musculus with 19 samples.

Results

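The genes that build the cornified envelope and the neighboring S100A calcium-binding genes were followed in the cornea and conjunctiva of mice that ate ad libitum (AL) or lived under caloric restriction (CR). Members were every feature named Sprr, Lce or S100a with a number, plus *Ivl*, *Lor*, *Krtdap*, *Evpl* and *Ppl*, which gave 56 of the 24552 features kept. They comprised 16 small proline-rich genes (SPRR), 21 late cornified envelope genes (LCE), 14 S100A genes and 5 other envelope genes. The gene for filaggrin, *Flg*, was not analysed here. RNA sequencing covered 19 libraries, of which the cornea gave 5 per diet and the conjunctiva 4 from AL and 5 from CR mice. All mice were female, C57BL/6 by the labels and C57BL/6J by the methods of the study, with no transgene. Food was freely available to AL mice, whereas CR mice had a smaller daily ration, offered late in the day, over several months of adult life. In part of the study the CR chow was also enriched in vitamins and micronutrients, and the titles do not name a cohort. The titles of all libraries also carried the marks 6M and 50W, which the labels do not explain, and the design text calls the mice young. The paper describes its mice as adult and middle-aged, although its discussion also uses the word young. The cornea libraries held scraped corneal epithelium, and the conjunctiva libraries held excised tissue with stroma. Each library is called by its diet and the number in its title.

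The cornified envelope is a shell of cross-linked protein that replaces the membrane of a dying squamous cell. Involucrin (*Ivl*), envoplakin (*Evpl*) and periplakin (*Ppl*) form its scaffold, and loricrin (*Lor*), SPRR and LCE proteins are then joined to it by transglutaminases. The ocular surface is a moist squamous epithelium that stays uncornified in health, and several envelope genes are known to rise there in dry eye. S100A proteins are small calcium sensors that act inside and outside cells, many of them through annexins.

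All but 3 members belong to 1 gene cluster, the epidermal differentiation complex. Of the 56 members, 53 lay on chromosome 3 within 3.05 megabases (chr3:90511034-93564645, GRCm38.p6, RefSeq). *Krtdap* lay on chromosome 7, *Evpl* on chromosome 11 and *Ppl* on chromosome 16. No member was called changed by CR in either tissue, and the levels that set these genes apart were those between members and between tissues, described first.

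Most of the envelope cluster had few or no counted reads at this depth. Of the 56 members, 44 had at least 1 read in the cornea and 50 in the conjunctiva. A read in every library was found for 20 members in the cornea and 20 in the conjunctiva, and these sets were not the same. Another 5 members (*Sprr2a1*, *Sprr2a2*, *Sprr2e*, *Sprr2i* and *Sprr2k*) had 0 reads in all 19 libraries, which allows up to 3 reads per library, or between 2.27 and 3.37 normalized counts. For *Sprr2a1* and *Sprr2a2* this limit does not hold, since 94.3% and 94.7% of their 75-base windows also occur in another gene and their reads may have gone uncounted. A normalized count is a read count divided by the size factor of its library. In each tissue 22 members reached the mean of 10 normalized counts needed for testing and 34 did not, with 19 tested in both tissues.

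*S100a6*, known as calcyclin, dominated the module. It took between 1.24% and 1.68% of all counted reads of a cornea library and between 0.722% and 1.10% of those of a conjunctiva library. Per length, on the RPKM scale (counts per 1000000 counted reads, CPM, divided by exon length in kilobases), its mean level was 10504 in cornea and 6899.9 in conjunctiva libraries. The next levels per length in the cornea were 1753 RPKM for *S100a11*, an annexin A1 partner, 799.9 RPKM for *S100a10*, the annexin A2 partner, and 469.9 RPKM for *Lce3a*. *S100a16* and *S100a14* followed in the cornea with 443 and 432 RPKM. In the conjunctiva *S100a11* stood at 2330.2 RPKM and *S100a10* at 499 RPKM, again behind *S100a6*. The scaffold genes *Ppl* and *Evpl* were close to each other per length in both tissues, at 145 and 137 RPKM in the cornea and 69.4 and 55.6 RPKM in the conjunctiva. RPKM assumes reads from whole transcripts, and the type of library was given differently in different sources, so these levels across genes are approximate.

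**Figure D1:**
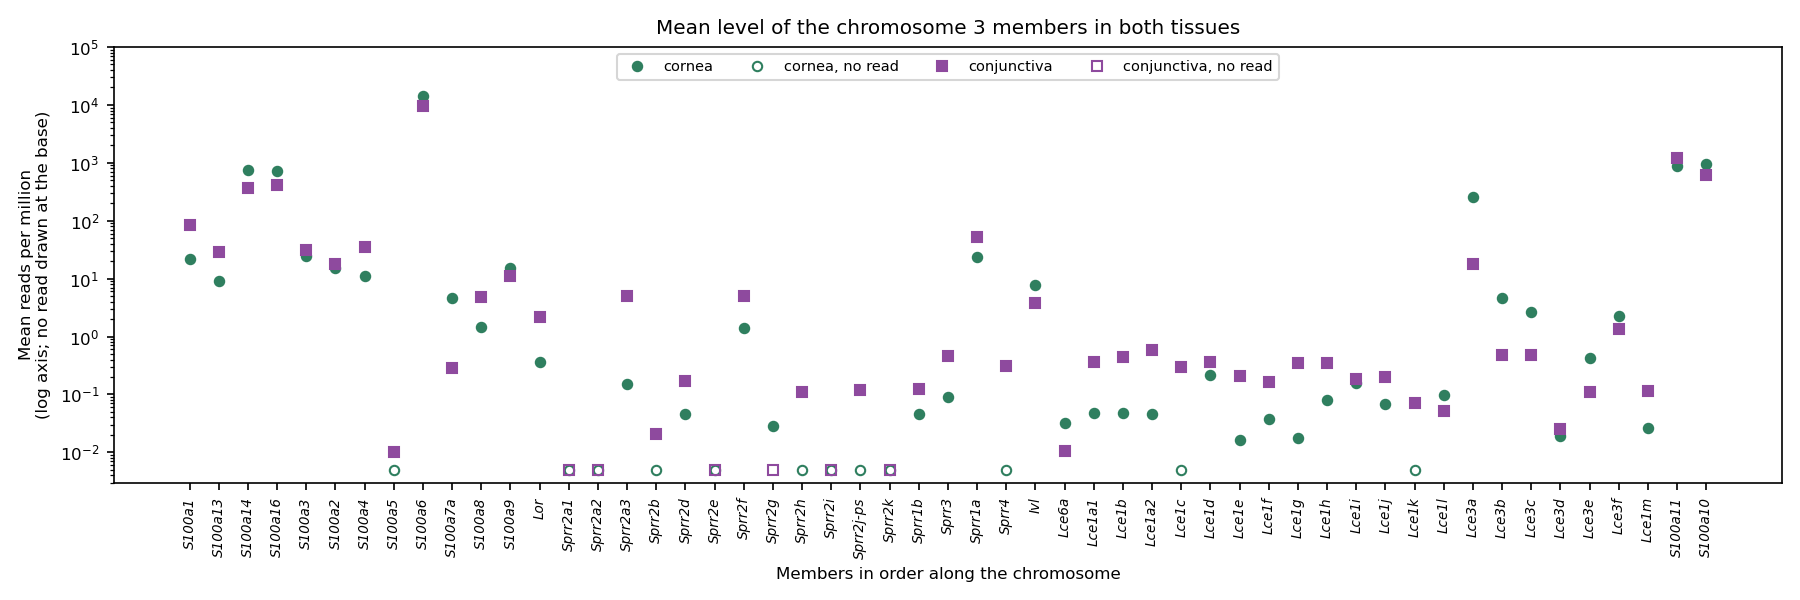
Mean CPM (y axis, log scale) of the 53 chromosome 3 members, placed in their order along the chromosome (x axis, not to distance), with filled symbols for the cornea and the conjunctiva and open symbols at the base where no library had a read. S100A genes at both ends of the cluster carry the high levels, most SPRR and LCE genes between them stay below 1 CPM, and *Lce3a* (258 in the cornea) and *Sprr1a* (52.5 in the conjunctiva) stand out.

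Within the SPRR and LCE families 1 gene each held most of the reads. *Lce3a*, a late cornified envelope gene of a subgroup linked to barrier repair, made up 93.8% to 97.6% of LCE reads of a cornea library and 38.2% to 92.9% of those of a conjunctiva library. *Sprr1a*, a small proline-rich gene known to respond to stress, made up 62.6% to 100% of SPRR reads for the cornea and 73.9% to 96.0% for the conjunctiva. These shares are of reads and are not corrected for length. The lowest cornea share of *Sprr1a* was in CR 7, where *Sprr2f* reached 132 normalized counts against 10.9 or fewer in the other cornea libraries.

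The *Lce1* genes, which mark late steps of skin keratinization, were summed because each had few reads. Their sum was between 0 and 27.5 normalized counts in the cornea. In the conjunctiva it was 87.6, 7.86, 6.45 and 8.18 normalized counts in AL 1, 3, 4 and 5, and 4.87, 55.2, 22.2, 102 and 133 in CR 1 to 5. Both diets held low and high libraries, and no test was made on this sum.

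The levels of several members separated the tissues. CPM values were compared as a description, with no test, because the authors scaled each tissue in its own table. Every cornea library stood above every conjunctiva library for 8 of the 25 members tested in at least 1 tissue (4.2% of all 14278 genes so tested). These were the scaffold genes *Evpl* and *Ppl*, *Lce3a* and *Lce3b*, and *S100a6*, *S100a7a*, *S100a14* and *S100a16*. The reverse held for 3 members, *S100a1*, *S100a4* and *S100a13* (18.1% of all genes), and the other 14 overlapped.

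*Lce3a* showed a wide gap, with a mean of 258 CPM in the cornea (range 133 to 521) against 18.2 in the conjunctiva (range 2.42 to 40.0). *Ppl* had a mean of 1000.1 CPM in the cornea (range 847 to 1184) against 478 in the conjunctiva (range 371 to 562). *S100a7a*, the mouse relative of psoriasin, had a mean of 4.71 in the cornea (range 2.43 to 7.40) against 0.285 in the conjunctiva (range 0 to 0.839). In the other direction *S100a1*, best known from muscle, had a mean of 22.1 in the cornea (range 10.6 to 29.6) and 85.8 in the conjunctiva (range 39.2 to 123). *S100a4*, a nonmuscle myosin partner abundant in stromal cells, had a mean of 11.0 in the cornea (range 6.20 to 16.0) and 34.5 in the conjunctiva (range 28.2 to 49.3). Markers of other cells moved with the tissue. The summed level of 5 skeletal muscle markers was at most 5.86 CPM in cornea libraries and 874 to 9057 CPM in conjunctiva libraries, and that of 7 fibroblast markers was 36.7 to 177 and 1918 to 5037 CPM. Their part in these gaps was not tested, and in bulk tissue fewer cells of a type and less RNA per cell cannot be told apart.

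Defining markers were set against the tissue labels. The summed level of 7 corneal epithelial markers, *Krt12* among them, was 41503 to 62787 CPM in cornea libraries and 8181 to 10929 CPM in conjunctiva libraries. Within that list *Krt14* ran the other way, with means of 520.3 CPM in cornea and 1087 CPM in conjunctiva libraries. The sum of 5 conjunctival epithelial markers did not separate the tissues (2178 to 5306 CPM in cornea and 2369 to 6021 CPM in conjunctiva libraries). In that sum *Krt13* had means of 2415 and 1829.5 CPM, and the other markers of the list were higher in the conjunctiva. *Muc5ac* had at most 43.3 normalized counts in cornea libraries and 2328 to 6593 in conjunctiva libraries. *Krt8* had 32.7 to 150 and 670 to 1140. For *Krt4* and *Krt19* the means were higher in the conjunctiva but the libraries overlapped. Cornea AL 1 stood apart in lacrimal gland markers, at 857 CPM against at most 26.3 in the other cornea libraries. The share of genes with 0 reads was 40.5% ± 2.70 (SD, n = 5) in AL and 44.4% ± 3.06 (SD, n = 5) in CR cornea (two-sided exact permutation p = 0.0714, where AL 4 reached 45.2%). In the conjunctiva it was 35.3% ± 1.90 (SD, n = 4) and 37.1% ± 2.29 (SD, n = 5, two-sided exact permutation p = 0.246).

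The members also differed in how steady they were between mice of a diet. The SD of log2 values within a diet was 0.15 for *S100a6*, 0.17 for *Evpl* and 0.17 for *Ppl* in the cornea, against a median of 0.32 over all genes tested. It was 2.35 for *Sprr2f* and 1.82 for *Lce3c* in the cornea. In the conjunctiva it was 0.21 for *Evpl* and 0.24 for *S100a6*, but 2.67 for *Krtdap*, 2.25 for *Lce3f* and 2.13 for *Sprr2a3*, against a median of 0.35. *S100a11*, the next S100A gene by level, had SDs of 0.50 in the cornea and 0.51 in the conjunctiva, above both medians. *Sprr2f* and *S100a8* (SD 1.83) in the cornea and *Sprr2a3* in the conjunctiva each passed the filter only through 1 high library, so their SDs had to be large. *Lce3b*, also low in the cornea, had an SD of 0.70.

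**Figure D2:**
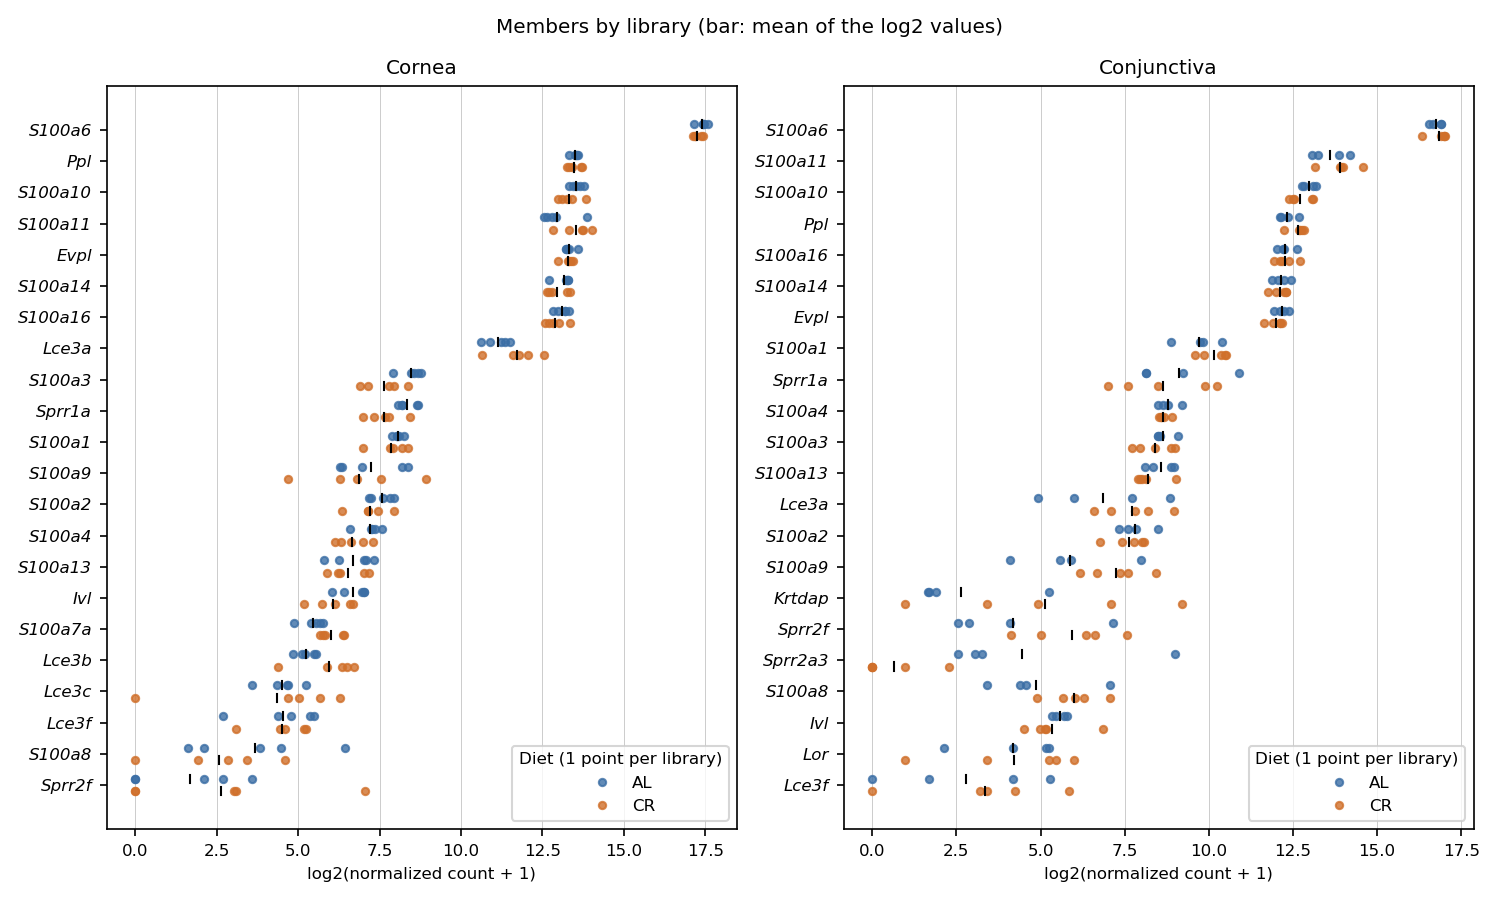
Log2(normalized count + 1) of each tested member (x axis) in every library, cornea at left and conjunctiva at right, with AL points in blue, CR points in orange and a black bar at the mean of each diet. AL and CR points overlap for all 22 cornea members and for 21 of the 22 conjunctiva members, the exception being *Sprr2a3*.

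In the cornea, the question was whether CR altered this envelope and S100A program in the corneal epithelium. No member was called at a Benjamini-Hochberg adjusted p under 0.05 and a fold over 1.5 (0 of 22, where 1.22% of all 12278 genes tested were called, limma). The lowest adjusted p was 0.106. At an unadjusted p under 0.05 there were 3 members, *S100a3*, *Sprr1a* and *S100a4*, all fitted lower in CR (3 of 22, where 18.1% of all genes passed this mark). The AL and CR libraries overlapped for all 22 members (3.97% of all genes did not overlap). Of the 22, 5 were fitted higher in CR, against 46.9% of all genes, and the median log2 change was −0.18 against −0.03 over all genes tested.

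*S100a3*, a calcium-binding gene known from the hair cuticle, had 378, 436, 353, 238 and 409 normalized counts in AL 1 to 5. In CR 1, 2, 3, 4 and 7 it had 119, 219.6, 139, 245 and 329.7 normalized counts. AL 4 fell within the CR range, and the other 4 AL libraries stood above all CR libraries. The means were 363 ± 76.5 in AL and 211 ± 84.9 in CR (SD, n = 5 each), a log2 change of −0.85 ± 0.25 (SE, adjusted p = 0.106, limma). *S100a3* shares exon sequence on the same strand with the predicted gene *Gm42674*, as does its neighbor *S100a4*. For *S100a3* the shared part is small, 1.27% of its windows of 75 bases. *S100a2* lies inside the RefSeq span of *S100a3*.

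*S100a4* had 188, 162, 154, 96.4 and 149 normalized counts in AL 1 to 5 and 126, 78.2, 68.9, 97.1 and 157 in the CR libraries in the same order as above. Its log2 change was −0.54 ± 0.25 (SE, adjusted p = 0.267, limma), with wide overlap. By sequence, 44.8% of its windows of 75 bases also occur in *Gm42674*, so the assignment of its reads is uncertain.

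*Sprr1a* had 290.4, 407, 266, 291 and 403 normalized counts in AL 1 to 5. In the CR libraries it had 161, 201, 127, 344 and 221. CR 4 lay within the AL range and the other 4 CR libraries below it. The means were 332 ± 67.9 in AL and 211 ± 83.1 in CR, a log2 change of −0.71 ± 0.23 (SE, n = 5 each, adjusted p = 0.121, limma).

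Single libraries and weights moved these 3 genes across the threshold. With limma array weights, which lower the weight of libraries that depart from their group, *S100a3*, *S100a4* and *Sprr1a* were all called lower (adjusted p = 0.0042, 0.0355 and 0.0373), where 5.74% of all genes were called. *S100a3* was also called without AL 4 (log2 change −0.99, adjusted p = 0.0280, limma) and without CR 7 (−1.03, adjusted p = 0.0239, where 1.32% of all genes were called). *Sprr1a* was called without CR 4 (−0.91, adjusted p = 0.0299), where 1.48% of all genes were called. *S100a11* was called higher without AL 4 (0.82, adjusted p = 0.0411), where 4.35% of all genes were called.

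*S100a11* had the largest positive fitted change of the S100A genes in the cornea. It had 6358, 7652, 5957, 15000 and 7070.2 normalized counts in AL 1 to 5 and 7275, 13511, 13787, 10296 and 16674 in CR 1, 2, 3, 4 and 7. AL 4 stood with the high CR libraries and CR 1 with the low AL libraries. Its log2 change was 0.58 ± 0.29 (SE, adjusted p = 0.332, limma). The share of genes with 0 reads was 45.2% in AL 4, the highest of the AL libraries, and 39.9% in CR 1, the lowest of the CR libraries, and with that share as a covariate the log2 change was −0.05 (adjusted p = 0.918). Its sequence is shared with the pseudogenes *Gm12854* and *Gm7665* over 37.8% of windows.

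*Lce3a* had 1571, 2926, 1908, 2625 and 2402 normalized counts in AL 1 to 5 and 3505, 4242, 1586, 5989.8 and 3070.4 in the CR libraries. CR 3 was near the lowest AL library, and the other 4 CR libraries were above all AL libraries. The log2 change was 0.59 ± 0.33 (SE, 95% interval −0.15 to 1.34, adjusted p = 0.380, limma). *Lce3b* had 27.5, 43.7, 33.8, 46.0 and 36.0 normalized counts in AL and 105, 80.1, 19.7, 88.9 and 57.6 in CR, and gave 0.72 ± 0.40 (adjusted p = 0.350), again with CR 3 lowest. *Lce3c* had 24.2, 10.9, 37.1, 24.8 and 19.6 normalized counts in AL and 31.8, 76.3, 25.0, 50.1 and 0 in CR, with both the highest and the lowest library in CR, and a log2 change of −0.17 ± 0.95 (adjusted p = 0.948), and *Lce3f* gave −0.04 ± 0.59 (adjusted p = 0.983).

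Among the other envelope genes, *Ivl* had 124, 128, 84.0, 65.4 and 129 normalized counts in AL 1 to 5 and 102, 95.2, 35.6, 52.1 and 69.7 in CR. The log2 change was −0.62 ± 0.31 (SE, adjusted p = 0.290, limma). AL 1, 2 and 5 stood above all CR libraries, and CR 3 was the lowest. The scaffold gene *Evpl* had 9794, 9631, 9591, 12345 and 10145 normalized counts in AL and 8028, 11190.0, 10661, 9879 and 10097 in CR. *Ppl* had 12276, 12186, 11783, 10140.0 and 11702 in AL and 13502, 9794, 10152, 13137 and 10846 in CR. The diets overlapped for both genes. Their log2 changes were −0.05 (95% interval −0.28 to 0.18) and −0.03 (−0.25 to 0.20). *S100a6* was narrow as well, with 197476, 179778, 175328, 144453 and 176043 normalized counts in AL and 177861, 147639, 141848, 169140.0 and 149432 in CR, and a log2 change of −0.15 (−0.37 to 0.07, adjusted p = 0.467).

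The other S100A genes tested in the cornea were *S100a1*, *S100a2*, *S100a7a*, *S100a8*, *S100a9*, *S100a10*, *S100a13*, *S100a14* and *S100a16*. Of these, *S100a7a* was fitted higher in CR, at 0.56 ± 0.30 (SE, adjusted p = 0.340, limma), and the other 8 were fitted lower, from −0.17 to −1.13. *S100a8* and *S100a9* scattered widely there, *S100a8* from 0 in CR 3 to 85.1 normalized counts in AL 3 and *S100a9* from 25.0 in CR 3 to 484 in CR 7. *S100a8* passed the filter only through AL 3 and was not tested without it. *Sprr2f*, at 3.30, 5.46, 10.9, 0 and 0 normalized counts in AL and 0, 7.54, 0, 7.15 and 132 in CR, passed the filter only through CR 7. *Krtdap* and *Lor* were below the mean needed for testing in the cornea, at no more than 25.2 and 11.3 normalized counts in any library.

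**Figure D3:**
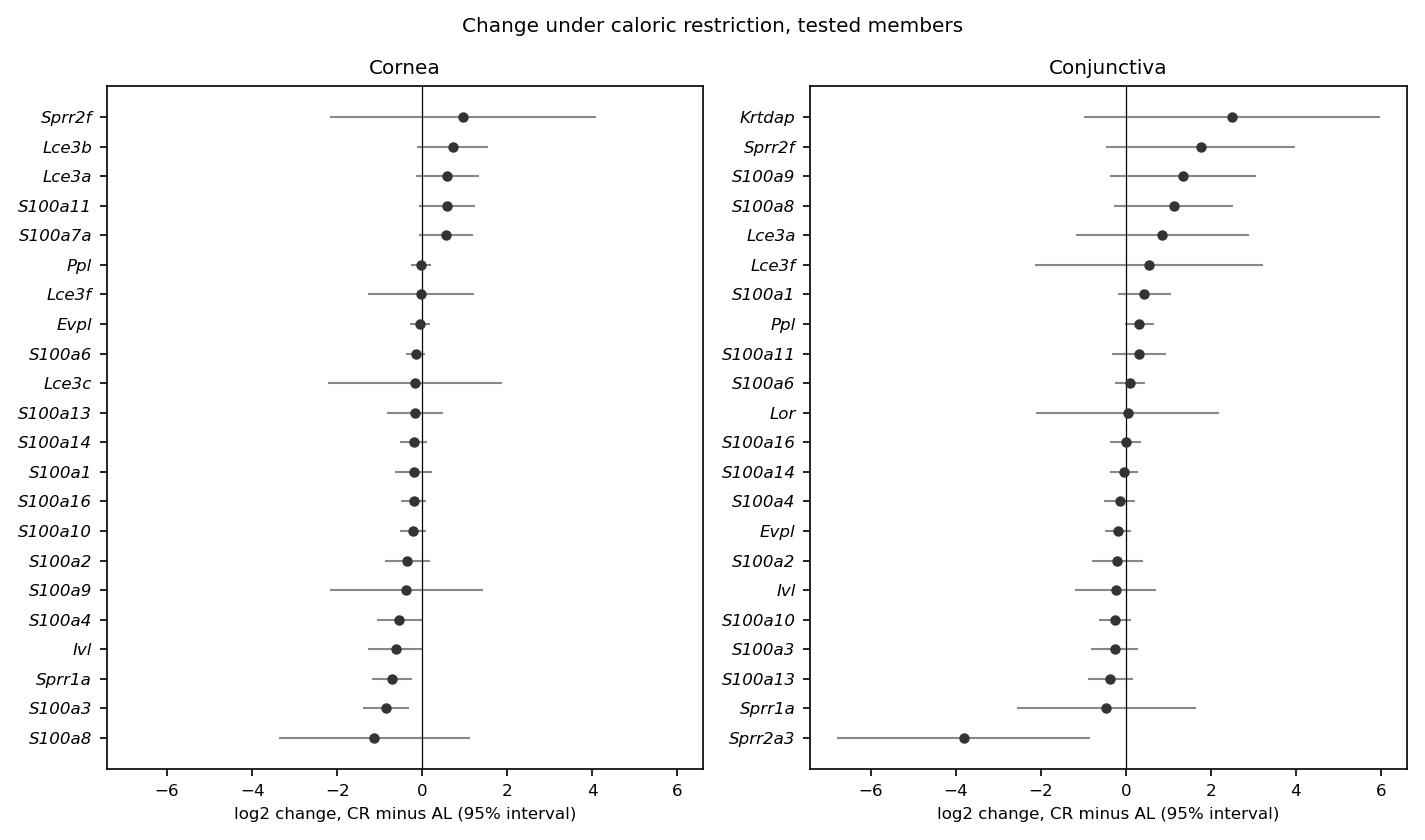
Fitted log2 change, CR minus AL (x axis), with its 95% interval for each tested member in the cornea (left) and the conjunctiva (right), on the log2(normalized count + 1) scale. Intervals of the abundant genes *Evpl*, *Ppl* and *S100a6* are short and include 0, and those of *Sprr2f*, *Krtdap* and *Lce3f* span several units.

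In the conjunctiva, the same comparison called no member either (0 of 22, where 0.359% of all 13929 genes were called, limma), and the lowest adjusted p was 0.358. At an unadjusted p under 0.05 there was 1 member, *Sprr2a3* (1 of 22, where 9.4% of all genes passed), and it was also the only member without overlap between the diets (3.87% of all genes did not). Of the 22, 11 were fitted higher in CR, against 48.0% of all genes, and the median log2 change was 0.02 against −0.02 over all genes.

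*Sprr2a3* was read almost only in AL 3. It had 4.82, 513, 8.61 and 7.27 normalized counts in AL 1, 3, 4 and 5, and 3.90, 0.952, 0, 0 and 0 in CR 1 to 5. The other AL libraries were only a little above the CR libraries, close to the limit that 3 reads set. The fitted log2 change was −3.81 ± 1.40 (SE, adjusted p = 0.358, limma), a value that depends on the added count of 1 for libraries near 0. Without AL 3 its mean fell below 10 and it was not tested. *Sprr2a3* has near-copies, and their coding sequences are printed here because reads from such copies are hard to tell apart. The coding sequence of *Sprr2a1* (chr3:92219092-92219340, plus strand, GRCm38, GENCODE) is identical to that of *Sprr2a2* and differs from that of *Sprr2a3* (chr3:92288588-92288836, plus strand) at 3 of 249 positions, 63, 159 and 192 counted from the start codon, shown in capitals.
Sprr2a1: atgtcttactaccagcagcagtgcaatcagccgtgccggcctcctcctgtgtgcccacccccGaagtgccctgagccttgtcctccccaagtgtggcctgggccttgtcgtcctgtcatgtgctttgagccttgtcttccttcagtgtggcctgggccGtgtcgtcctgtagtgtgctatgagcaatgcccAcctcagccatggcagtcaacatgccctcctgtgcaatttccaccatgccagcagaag
Sprr2a3: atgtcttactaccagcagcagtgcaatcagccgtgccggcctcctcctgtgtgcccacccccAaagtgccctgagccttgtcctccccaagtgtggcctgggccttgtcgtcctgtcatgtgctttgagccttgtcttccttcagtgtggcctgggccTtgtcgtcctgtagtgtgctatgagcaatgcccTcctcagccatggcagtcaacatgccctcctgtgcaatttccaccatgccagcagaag

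Windows of 75 bases were compared over whole transcripts as well. In *Sprr2a3*, 47.5% of transcript windows occurred in another gene, against the higher shares given above for *Sprr2a1* and *Sprr2a2*. Of the 56 members, 26 shared no window with another gene, among them *Sprr1a*, *Sprr2f*, *Krtdap*, *Ivl*, *S100a6*, *S100a8* and *S100a9*.

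*Sprr1a* had 279, 1893, 282 and 606 normalized counts in conjunctiva AL 1, 3, 4 and 5 and 194, 356, 127, 949 and 1218 in CR 1 to 5. AL 3 and CR 5 were the highest libraries of their diets. The log2 change was −0.45 ± 0.90 (SE, adjusted p = 0.914, limma), and it was 0.14 without AL 3.

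*Sprr2f*, a further SPRR gene, had 4.82, 143, 16.1 and 6.36 normalized counts in AL 1, 3, 4 and 5 and 31.2, 98.0, 16.4, 79.9 and 187 in CR 1 to 5. Here too AL 3 and CR 5 were highest, and 3 of the 4 AL libraries were below every CR library. The log2 change was 1.76 ± 1.0 (SE, adjusted p = 0.628, limma) with all libraries and 2.76 (adjusted p = 0.170) without AL 3.

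*Krtdap*, which encodes a small secreted protein of differentiating keratinocytes, had 37.0, 2.24, 2.15 and 2.73 normalized counts in AL 1, 3, 4 and 5. It had 0.974, 29.5, 9.65, 134 and 594 in CR 1 to 5. CR 5 and CR 4 stood far above the other libraries, while CR 1 was the lowest of all. The log2 change was 2.50 ± 1.56 (SE, adjusted p = 0.666, limma) and 1.48 without CR 5 (adjusted p = 0.747).

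*S100a8* and *S100a9*, whose products pair as calprotectin, are abundant in neutrophils and induced in stressed epithelium. *S100a8* had 9.65, 132, 22.6 and 19.99 normalized counts in AL 1, 3, 4 and 5 and 64.3, 49.5, 77.2, 28.7 and 133 in CR 1 to 5. *S100a9* had 16.1, 252, 59.2 and 46.3 and, in CR, 164, 70.4, 100.4, 195 and 341. For both genes, 3 of the 4 AL libraries were below every CR library, and AL 3 was as high as the upper CR libraries. The log2 changes were 1.13 ± 0.65 and 1.35 ± 0.76 (SE, adjusted p = 0.624 and 0.627, limma), and without AL 3 they were 1.87 and 2.05 (adjusted p = 0.210 and 0.195). Of 9 neutrophil markers *Ly6g*, *Mpo* and *Elane* had no read in any conjunctiva library, and the sum of the list, most of it *Ltf*, was between 26.3 and 46.1 CPM in AL and between 31.2 and 85.2 in CR. *Ltf*, which glands also make, had 315 ± 52.3 normalized counts in AL (SD, n = 4) and 760 ± 254 in CR (SD, n = 5), with a log2 change of 1.20 (adjusted p = 0.0682, limma). *Cxcr2* was highest in CR 5 and AL 3, at 167 and 60.6 normalized counts against at most 23.4 in the others (log2 change 2.50, adjusted p = 0.540). *Retnlg* had means of 57.3 in AL and 27.2 in CR (log2 change −0.84, adjusted p = 0.802). Their part in the result was not tested.

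The 2 libraries that were high for several members also stood apart in tissue markers. The summed level of skeletal muscle markers was 874 CPM in AL 3 and 904 in CR 5, against 2820 to 9057 in the other conjunctiva libraries. In CR 5 the 6 meibomian gland markers summed to 850.3 CPM, against 109 to 202 elsewhere, with *Awat2*, a wax ester enzyme, at 2051 normalized counts and at most 68.2 in the others. CR 5 was the highest conjunctiva library for *Krtdap*, *Ivl*, *Lor*, *Sprr2f*, *S100a1*, *S100a8*, *S100a9* and *S100a11*, and AL 3 for *Sprr1a*, *Sprr2a3*, *S100a2*, *S100a3*, *S100a4* and *S100a14*. Leaving out both libraries, a choice made after the data were seen, still called 0 of 21 members (0.417% of all genes). The log2 changes were then 1.60 for *S100a8*, 1.76 for *S100a9*, 2.35 for *Sprr2f* and 1.17 for *Krtdap* (adjusted p = 0.263, 0.127, 0.204 and 0.868, limma).

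**Figure D4:**
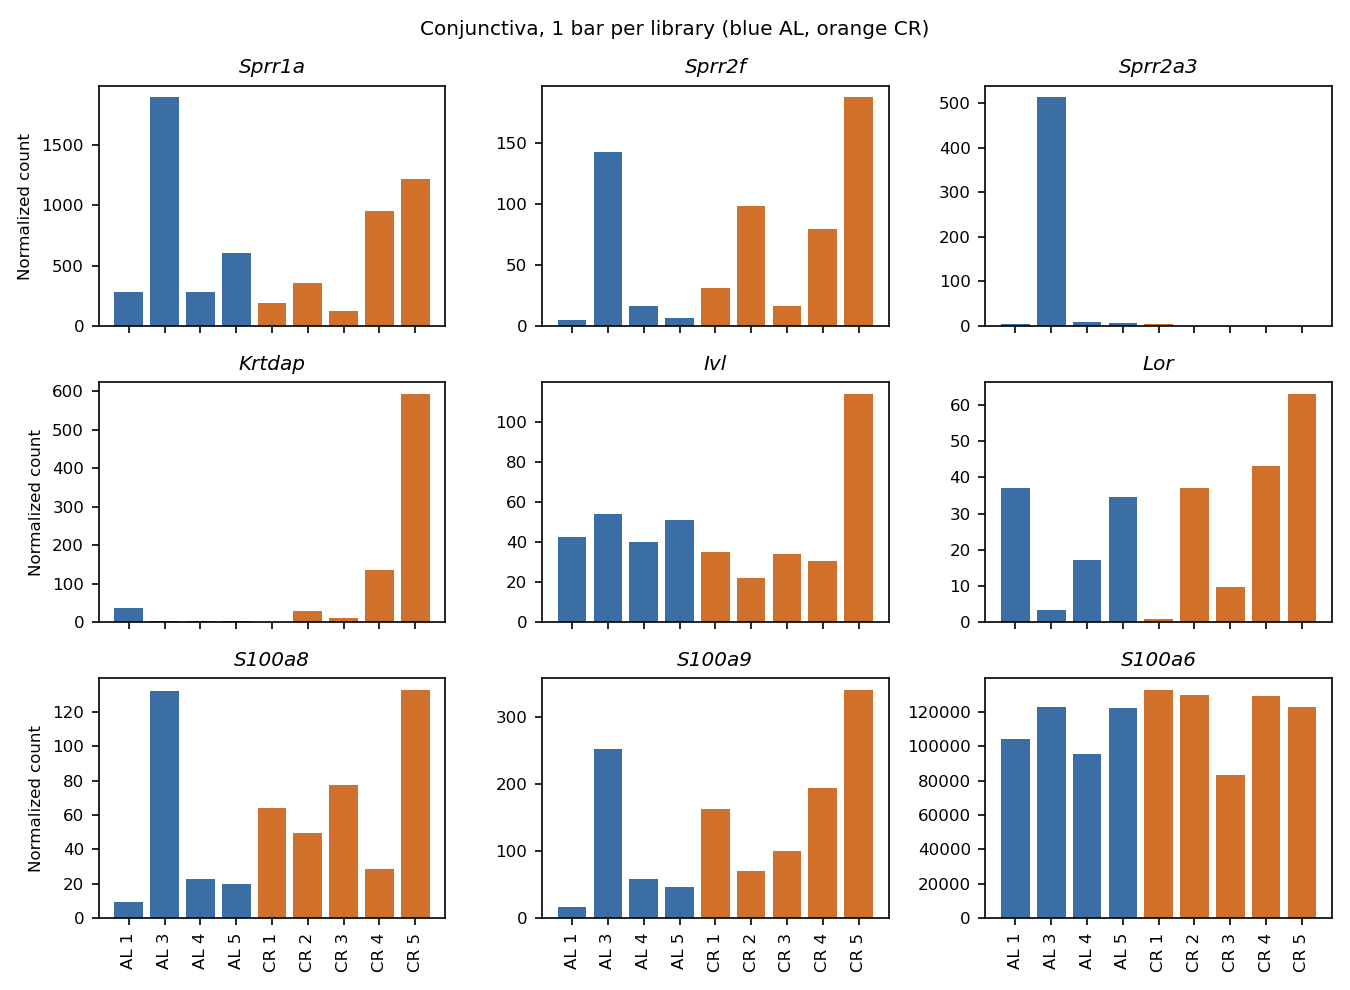
Normalized counts (y axis, from 0, a separate scale for each gene) of 9 members in the 9 conjunctiva libraries (x axis), AL in blue and CR in orange. AL 3 and CR 5 hold the tallest bars for *Sprr1a*, *Sprr2f*, *S100a8* and *S100a9*, *Sprr2a3* is high in AL 3 alone (513), *Krtdap* is high in CR 5 (594) and CR 4 (134), and *S100a6* ranges from 83307 in CR 3 to 132891 in CR 1.

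The remaining envelope genes of the conjunctiva showed small or scattered differences. *Ppl* had 4549, 6519, 5224 and 4422 normalized counts in AL 1, 3, 4 and 5 and 6534, 7015, 4796, 7267 and 6657 in CR 1 to 5, a log2 change of 0.32 ± 0.16 (SE, adjusted p = 0.549, limma). Its partner *Evpl* had 4811, 4445, 3904 and 5380.1 in AL and 4466, 4589, 3219.8, 4386 and 3805 in CR (log2 change −0.18, 95% interval −0.50 to 0.13). *Ivl* had 42.6, 53.9, 39.8 and 50.9 in AL and 35.1, 21.9, 33.8, 30.7 and 114 in CR. All CR libraries of *Ivl* but CR 5 were below every AL library, and the log2 change of −0.24 ± 0.45 (SE) became −0.62 without CR 5 (adjusted p = 0.907 and 0.649, limma). *Lor*, the main envelope protein of skin, had 37.0, 3.37, 17.2 and 34.5 in AL and 0.974, 37.1, 9.65, 43.0 and 63.2 in CR, with low and high libraries in both diets and a log2 change of 0.04 ± 1.0.

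*Lce3a*, far lower here than in the cornea, had 62.7, 29.2, 462 and 208 normalized counts in AL 1, 3, 4 and 5 and 136, 499, 223, 94.3 and 294 in CR 1 to 5. The libraries of both diets spanned a wide range, and the log2 change was 0.86 ± 0.87 (SE, adjusted p = 0.821, limma). *Lce3f* had 0, 2.24, 17.2 and 38.2 in AL and 0, 57.1, 9.65, 8.20 and 17.7 in CR, with a library at 0 in each diet and a log2 change of 0.55 ± 1.26 (adjusted p = 0.925). *S100a1* had 856, 471, 910.1 and 1344 and, in CR, 929, 1307, 1421, 767 and 1444. AL 3 was lowest, and the log2 change was 0.44 ± 0.29 (adjusted p = 0.681). *S100a6* had 103942, 122887, 95362 and 122012 in AL and 132891, 129784, 83307, 129370.0 and 122632 in CR, with CR 3 the lowest library. *S100a6*, *S100a14* and *S100a16* gave log2 changes of 0.09, −0.03 and −0.00 with intervals no wider than −0.37 to 0.45.

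The promoters of 4 of these members are shown. *Sprr1a*, *Sprr2f* and *Krtdap* varied widely between conjunctiva libraries, and *Lce3a* differed between the tissues. *Lce3a* is no contrast in spread, since its SD of log2 values within a diet was 1.35 in the conjunctiva, against 1.36 for *Sprr1a*. The motif TGACTCA is the site known to bind AP-1, a Fos and Jun dimer, and TATAAA is the TATA box. Each run is the 250 bases before the annotated start (RefSeq, GRCm38.p6), 5′ to 3′ on the strand of the gene. Capitals mark TGACTCA on either strand (TGAGTCA where it lies on the other) and TATAAA. *Sprr1a* lies at chr3:92485882-92486131 (minus strand), *Sprr2f* at chr3:92364937-92365186 (plus), *Krtdap* at chr7:30787655-30787904 (plus) and *Lce3a* at chr3:92926231-92926480 (minus).
Sprr1a: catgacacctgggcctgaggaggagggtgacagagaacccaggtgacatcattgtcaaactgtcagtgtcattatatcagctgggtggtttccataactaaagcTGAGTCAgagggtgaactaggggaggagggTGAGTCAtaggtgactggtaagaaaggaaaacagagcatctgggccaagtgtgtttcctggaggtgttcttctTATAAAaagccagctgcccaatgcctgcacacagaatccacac
Sprr2f: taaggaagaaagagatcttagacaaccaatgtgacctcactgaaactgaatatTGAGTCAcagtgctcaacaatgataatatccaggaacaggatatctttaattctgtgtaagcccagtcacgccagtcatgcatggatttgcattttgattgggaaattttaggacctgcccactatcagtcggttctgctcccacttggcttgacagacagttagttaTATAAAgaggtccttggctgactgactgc
Krtdap: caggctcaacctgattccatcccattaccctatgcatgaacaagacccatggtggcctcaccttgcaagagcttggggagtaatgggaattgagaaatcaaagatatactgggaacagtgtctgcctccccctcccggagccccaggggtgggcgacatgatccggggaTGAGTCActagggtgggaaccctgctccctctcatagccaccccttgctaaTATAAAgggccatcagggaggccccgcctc
Lce3a: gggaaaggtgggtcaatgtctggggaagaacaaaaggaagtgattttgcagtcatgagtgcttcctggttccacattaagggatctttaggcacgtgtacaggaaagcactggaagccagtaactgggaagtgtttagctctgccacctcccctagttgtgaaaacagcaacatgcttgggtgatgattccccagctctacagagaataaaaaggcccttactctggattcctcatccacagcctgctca

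*Sprr1a* held TGACTCA beginning 146 and 116 bases before its start, *Sprr2f* at 197 and *Krtdap* at 81, with TATAAA at 43, 29 and 30 bases. *Lce3a* held neither motif in these letters, and nor did *Lce3f* and *Sprr2a3*, whose SDs in the conjunctiva (2.25 and 2.13) were above that of *Sprr1a*. The SD of *Sprr2a3* had to be large because of the filter, as given above. Its window ends at chr3:92285303, far before its coding sequence at chr3:92288588, and may not match the windows of the other *Sprr2* genes. Whether the motifs go with spread was not tested. Over the 52 member promoters with sequence (48 genes), 12 (23.1%) held TGACTCA on either strand, against 4.46% of all 32851 promoters of the same length. By family this was 8 of 14 SPRR promoters, 0 of 20 LCE promoters and 1 of 15 S100A promoters. Apart from *Sprr1a*, these SPRR promoters belong to *Sprr2* paralogs, each with a site 193 to 198 bases and TATAAA 29 bases before the start. They are therefore not independent, and *Sprr2e*, *Sprr2i* and *Sprr2k* among them had 0 reads in all 19 libraries. TATAAA on either strand stood in 20 of the 52 (38.5%) against 12.4% of all. The palindrome CACGTG, which clock and MYC factors bind, stood in 2 of the 52, *Lce3a* and *S100a11* (3.85% against 6.02% of all), and does not overlap the other motifs. These are matches of letters in a window and no sites of binding.

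The difference of the CR change between the tissues was tested for the 19 members measured in both. None was called (0 of 19, where 0.0168% of 11929 genes were called), and none had an unadjusted p under 0.05 (7.48% of all genes did). The smallest adjusted value was for *S100a8*, with a log2 change of −1.13 in the cornea and 1.13 in the conjunctiva, a difference of 2.26 ± 1.25 (SE, adjusted p = 0.707, from the limma fits). In the cornea *S100a8* passed the filter only through AL 3, at 85.1 normalized counts, so a fitted fall there was favored by the filter. Without cornea AL 3 this contrast could not be tested. *S100a3* had −0.85 in the cornea and −0.26 in the conjunctiva, a difference of 0.59 ± 0.36 (adjusted p = 0.730), and *Sprr1a* had −0.71 and −0.45, a difference of 0.26 ± 0.92 (adjusted p = 0.959). *Ppl* differed by 0.35 ± 0.19 (adjusted p = 0.711). For *S100a10*, with −0.22 and −0.26, the interval of the difference ran from −0.50 to 0.42.

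Of 38 other cornified envelope and keratinization genes, 25 were tested in the cornea and 1 was called, *Casp14*, the protease that processes filaggrin, which rose from 129 ± 58.4 to 257 ± 65.3 normalized counts (SD, n = 5 each, log2 change 1.04 ± 0.25 SE, adjusted p = 0.0476, limma). The median log2 change of the 25 was −0.14, against −0.03 over all genes. In the conjunctiva 26 were tested and 0 called, with *Casp14* at 1.33 ± 0.35 (adjusted p = 0.150). There 19 of the 26 were fitted higher, against 48.0% of all genes. The median log2 change was 0.20, against −0.02 over all genes. An unadjusted p under 0.05 (limma) was found for 6 of the 26, against 9.4% of all genes. Of 17 regulators of keratinocyte differentiation, 2 of 17 tested rose in the cornea and 0 of 17 in the conjunctiva (1.22% and 0.359% of all genes were called). In the cornea 14 of the 17 were fitted higher, and 9 of 17 had an unadjusted p under 0.05, against 18.1% of all genes. *Grhl3*, a grainyhead factor that drives barrier formation, rose in the cornea from 186 ± 46.6 to 486 ± 125 normalized counts (SD, n = 5 each, log2 change 1.38 ± 0.19 SE, adjusted p = 0.000895, limma). *Nfe2l2*, the NRF2 antioxidant factor and a known regulator of SPRR genes, rose from 1631 ± 256 to 2455 ± 268 (log2 change 0.60 ± 0.12, adjusted p = 0.0154). Of 14 S100 partners and other S100 genes, 1 of 10 tested rose in the cornea and 0 of 11 changed in the conjunctiva. This was *Anxa1*, the annexin that binds *S100a11*, with 2503 ± 338 in AL and 3922 ± 1018 in CR (log2 change 0.62 ± 0.15, adjusted p = 0.0448). Of the 20 alternative settings tried in the cornea, *Grhl3* kept its call in 20, *Nfe2l2* in 10, and *Casp14* and *Anxa1* in 8 each. With a covariate for genes at 0 reads the log2 changes of the last 3 were 0.44, 0.44 and 0.41 (adjusted p = 0.113, 0.426 and 0.258, limma).

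Some markers of other cell types differed with diet beside these results. In the cornea 1 of 5 tested macrophage markers fell, *C1qa*, and the list summed to 27.0 to 40.9 CPM in AL and 17.5 to 27.7 in CR. Among gland markers there, 1 of 4 tested lacrimal genes fell (*Scgb2b24*) and 1 of 3 tested meibomian genes rose (*Mgst1*). The calls of *C1qa*, *Scgb2b24* and *Mgst1* held in 7, 9 and 8 of the alternatives run. In the conjunctiva 2 of 7 fibroblast markers fell, *Col1a1* and *Col3a1*, with list sums of 3278 to 5037 CPM in AL and 1918 to 3865 CPM in CR. Macrophage markers there summed to 296 to 356 CPM in AL and 167 to 275 CPM in CR, with 0 of 8 called. No marker of corneal epithelium, conjunctival epithelium, goblet cells, eyelid epidermis, neutrophils or skeletal muscle was called in either tissue (limma, at most 7 markers of a list tested), nor any gland marker in the conjunctiva or fibroblast marker in the cornea. Their part in the values above was not tested.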

How the data were processed

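Gene-level RNA sequencing values were analysed for 10 cornea and 9 conjunctiva libraries, grouped by tissue and diet from the labels (sizes of 5 and 5, and 4 and 5). The methods state that each mouse gave several tissues, and cornea and conjunctiva titles share diets and numbers, but the labels do not say which libraries came from 1 mouse. Libraries were therefore treated as independent, also in the contrast between tissues, where some may share a mouse.

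By the methods of the study, the authors had single reads trimmed with cutadapt, aligned to mm10 with STAR, counted with HTSeq and scaled with DESeq2 on the ROSALIND platform. Versions were not given in the sources used here. The submitters' processing notes name the build GRCm39, and the labels name a stranded mRNA kit where the methods name an oligo(dT) kit. The build, the library type and the use of strand in counting are therefore unsettled, and antisense or overlapping genes cannot be separated. The deposited values are log2 of a count divided by its size factor, plus 1, and the authors scaled each tissue separately.

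The values were returned to normalized counts and to whole reads (100% within 0.01 of a whole read), with 0 columns left unmatched. Of the 24557 features in each table, the 5 with a repeated symbol were dropped and 483 lacked a gene identifier. Cornea libraries held 10354125 to 14681223 counted reads and conjunctiva libraries 10726717 to 14433441. A floor of 3 reads reflects counting error alone.

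The AL and CR libraries of a tissue were compared in limma 3.58.1 (statmod 1.5.0, R 4.3.3, trend and robust moderation) on log2(normalized count + 1) for genes averaging 10 normalized counts or more, with Benjamini-Hochberg adjustment over all genes tested, and a gene was called at an adjusted p under 0.05 and a fold over 1.5. Such fold changes understate the change of low genes. The test was chosen for the deposited log2 unit, and of the methods for counts voom alone was run, on the recovered reads. The p-values measure the spread between these libraries. For the contrast between tissues, the conjunctiva change minus the cornea change was divided by its SE (Satterthwaite degrees of freedom) and called on the adjusted p alone. The procedure was tested on simulated data.

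Values in every library are given for the 3 members of each family with the smallest p in each tissue, for its most abundant member and for the other envelope genes tested. From the lists, called genes and the 2 with the smallest p could be named, and other markers (*Krt12*, *Krt13*, *Krt14*, *Ly6g*, *Mpo*, *Elane*, *Retnlg*, *Awat2*) and other members were named after their values were seen. The members and lists were chosen with earlier results of these data known. Alternatives tried were a pseudocount of 0.5 or 10, dropping the filter or raising it to 50, quantile and total-read scaling, voom on the recovered reads, array weights, a covariate for the share of genes at 0 reads, the replicate number as a block, each library left out in turn and, added after the data were seen, both conjunctiva libraries AL 3 and CR 5 left out. Promoters and gene positions came from RefSeq (GRCm38.p6), matched by gene identifier, and transcripts from GENCODE M21 (GRCm38). Motifs were searched on both strands of the 250 bases before each start.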

Additional observations from a re-analysis of the deposited data

Results flagged for a closer look

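Each value below stood apart from the rest of its group of 4 or 5 libraries by a gap that was large for the range of the group (Dixon criterion at 95%). Chance gives about 1 such value in 20 groups, and 12 values met it among the 52 groups examined, those of the 26 member and tissue pairs given by library, which were chosen partly by p. Over all genes tested, 6.85% of such groups held a value of this kind. *Sprr2f* in the cornea and *Sprr2a3* in the conjunctiva were tested only because of the high library flagged below. Those flags came with the filter. The other member and tissue pairs flagged did not need a single high library to pass it. Since the pairs were chosen partly by p, the count of 12 was not read as a trait of the members. In the cornea, *Evpl* was highest in AL 4 at 12345 normalized counts, *Ppl* lowest in AL 4 at 10140.0 and *S100a11* highest in AL 4 at 15000. *Sprr2f* was highest in CR 7 at 132. AL 4 was also the AL cornea library with the largest share of genes at 0 reads, 45.2%.

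In the conjunctiva, AL 3 stood apart for *S100a8* at 132, *Sprr2a3* at 513 and *Sprr2f* at 143 normalized counts. CR 5 stood apart for *Ivl* at 114 and *Krtdap* at 594. The remaining values were *Krtdap* in AL 1 at 37.0, *Sprr2a3* in CR 1 at 3.90, which was about the limit of 3 reads, and *S100a6* in CR 3 at 83307, the lowest of the CR libraries. CR 3 was also the conjunctiva library with the highest sum of skeletal muscle markers, 9057 CPM (counts per 1000000 counted reads). The part of these marker levels was not tested.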

How the results depend on the processing

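The count of 0 called members held in the conjunctiva and for the difference between tissues under every alternative run. In the cornea it became 3 with array weights and ranged from 0 to 2 with single libraries left out. Over all genes, array weights gave 705 calls in the cornea, 149 in the conjunctiva and 18 for the difference. In the cornea, voom gave 99 and the covariate for genes at 0 gave 62. Leaving out single libraries gave 53 to 536 (536 without AL 4, 309 without CR 1). In the conjunctiva such counts ran from 26 to 127, the highest without CR 3. For the difference they ran from 0 (without conjunctiva AL 1) to 7 (without cornea CR 1), total-read scaling gave 1 and the covariate 0. Replicate numbers did not pair the AL and CR libraries: same-numbered AL and CR libraries had correlations of their deviations between −0.30 and 0.29 for the cornea and between −0.06 and 0.05 for the conjunctiva, and only cornea pair 1 correlated best with its own number. Cornea and conjunctiva libraries of the same title had correlations between −0.42 and 0.14, which does not settle whether they share a mouse. With the replicate number as a block, 46 genes were called in the cornea, 10 in the conjunctiva and, per shared title, 0 for the difference, and no member was called. Of the alternative values of the 26 member and tissue pairs given by library, 471 kept direction and call, 7 became called, and 34 changed sign without a call, most of them for *Lor*, *Lce3c* and *Lce3f*. Over all 44 tested pairs there were 64 sign changes among 869 values, including 6 each for *Lce3f* in the cornea and *S100a16* in the conjunctiva. The cause of these shifts was not tested. The 31 members tested in neither tissue had few or 0 reads, and low expression and depth cannot be told apart for them. Reads lost to near-copies add to this where windows of 75 bases are shared, most of all for *Sprr2a1* and *Sprr2a2* (94.3% and 94.7%). Others of the 31, among them *Sprr1b*, *Sprr2k*, *Sprr3*, *Sprr4* and *S100a5*, shared no window with another gene.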
